A study of Mus musculus with 4 samples.

Results

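Cluster 3 of the mouse stomach is a set of epithelial cells with the RNA profile of DNA replication, and it was taken here as the 490 cells, of 4449 in all, that the deposited cell annotation assigned to cluster 3. The cells came from Rosa26iH2b-GFP female mice, in which a doxycycline-inducible histone 2B-GFP sits at the Rosa26 locus with its Tet-on 3G activator, so that GFP is not driven from a cell-type-specific promoter. All mice received doxycycline for 4 weeks from 4 weeks of age and were chased without it for 6 weeks, and they were 14 weeks old at collection. Stomach cells free of Cd45 and Cd31 were sorted as Epcam+ cells (Ep+ 1 and Ep+ 2) or as Epcam+ cells that still held GFP (GFP+ 1 and GFP+ 2), and sorted cells of 2 mice were combined. Nothing in the sources used here says which libraries came from separate mice, so the p-values below measure only the spread between libraries. Cluster 3 held 233 cells of Ep+ 1, 230 of Ep+ 2, 17 of GFP+ 1 and 10 of GFP+ 2. These sums amounted to 9423530, 8960237, 1171419 and 523830 unique molecular identifiers (UMIs, each standing for 1 captured RNA molecule), and the profile below rests on the Ep+ libraries.

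The gastric gland renews itself from its isthmus, a zone of dividing cells between the surface pit and the neck. Before DNA is copied, the Mcm2-7 helicase is loaded onto origins in G1 by Orc, Cdc6 and Cdt1, and in S phase it runs ahead of the polymerases, which slide on the Pcna clamp. The E2F factors with cyclin E switch on this set of genes, while the genes of spindle and chromosome segregation are switched on later, in G2 and mitosis. Pit cells make the mucin Muc5ac with the trefoil protein Tff1 and the gastrokines, and neck cells make the mucin Muc6.

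The label was first set beside the markers given for it. The helicase subunits Mcm6 and Mcm5 and the clamp Pcna were higher in cluster 3 than in each of clusters 0 to 8 in both Ep+ libraries. Tyms, which makes thymidylate, was about as high in cluster 4 as in cluster 3, and Muc5ac was highest in cluster 2. Mcm6, Mcm5 and Pcna thus went with the replication part of the label, which is a description and not an independent check. The clusters were drawn from the expression of these same cells, and the paper used Pcna and Mcm6 among its markers of clusters 3 and 4. Position in the gland cannot be read from dissociated cells. Of 17 genes named for isthmus or stem cells, only Trp53 was highest in cluster 3. Lgr5, a stem cell receptor, was at 0 and 0.549 CPM in Ep+ 1 and Ep+ 2, and Stmn1, a microtubule regulator of dividing cells, was at 331 and 410 CPM, below its 644 and 692 CPM in cluster 4. CPM are counts of UMIs scaled to a common library total and by TMM factors over the sums of each cluster and library, and they are given in the order Ep+ 1 then Ep+ 2 throughout.

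Promoter sequences were read for genes that led cluster 3 and for genes that led cluster 4, because letters of the E2F type and of the cell cycle homology region (CHR) are known from genes of these phases. Each run below gives the 160 bases before the RefSeq start on GRCm38.p6, 5′ to 3′ along the gene. Capitals mark E2F-type letters (TTTCGCGC, TTTGGCGC or TTTCCCGC on either strand, where matches may overlap) in Mcm6, Mcm5 and the chromatin remodeler Hells, and CHR letters (TTTGAA on either strand) in Top2a, which untangles DNA for mitosis, and Cdc20, an activator of the anaphase-promoting complex. The runs lie at chr1:128359706-128359865 on the minus strand (Mcm6), chr8:75109349-75109508 on the plus strand (Mcm5), chr19:38930830-38930989 on the plus strand (Hells), chr11:99024190-99024349 on the minus strand (Top2a) and chr4:118437344-118437503 on the minus strand (Cdc20).
Mcm6: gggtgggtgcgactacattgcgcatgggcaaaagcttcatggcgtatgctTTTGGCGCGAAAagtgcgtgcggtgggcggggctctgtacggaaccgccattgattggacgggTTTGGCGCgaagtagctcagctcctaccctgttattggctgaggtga
Mcm5: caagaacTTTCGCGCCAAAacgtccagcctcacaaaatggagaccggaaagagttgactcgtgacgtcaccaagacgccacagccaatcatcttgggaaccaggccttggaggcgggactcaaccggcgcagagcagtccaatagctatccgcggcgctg
Hells: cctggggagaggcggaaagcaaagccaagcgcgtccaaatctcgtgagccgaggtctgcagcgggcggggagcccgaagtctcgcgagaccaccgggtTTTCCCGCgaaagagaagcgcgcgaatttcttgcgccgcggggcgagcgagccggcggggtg
Top2a: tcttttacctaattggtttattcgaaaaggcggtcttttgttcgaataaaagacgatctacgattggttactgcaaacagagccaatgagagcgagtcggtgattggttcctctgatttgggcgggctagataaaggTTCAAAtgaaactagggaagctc
Cdc20: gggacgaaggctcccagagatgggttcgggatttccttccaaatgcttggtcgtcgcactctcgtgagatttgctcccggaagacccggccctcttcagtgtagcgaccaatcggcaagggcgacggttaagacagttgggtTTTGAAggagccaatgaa

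Mcm6 held 3 E2F-type matches, which began 110, 106 and 47 bases before the start, and the first pair overlapped. Over the 250 bases before the start of 27025 genes, such a match was found in 480 genes (1.78%). It was found in 7 of the 13 leading genes of cluster 3 that had an entry (53.8%), in 6 of 15 licensing genes (40.0%) and in 7 of 16 genes of the G1-S switch (43.8%). Other replication lists held it less often, with 5 of 26 fork genes (19.2%), 1 of 10 S phase repair genes (10.0%) and 0 of 15 nucleotide supply genes. It was found in 1 of 31 mitosis genes (3.23%) and in none of 15 pit genes. CHR letters were found in 4934 genes (18.3%), in 10 of 31 mitosis genes (32.3%) and in 1 of the 13 leading genes (7.69%). They were also found in 6 of 16 genes of the G1-S switch (37.5%), 4 of 15 licensing genes (26.7%) and 3 of 26 fork genes (11.5%). CHR letters thus did not separate the mitosis list from all replication lists. A match is a description of letters and not a site or a cause, and no test was run on these shares.

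Of 9319 genes with at least 10 CPM in both Ep+ libraries in any of clusters 0 to 8, 511 (5.48%) were highest in cluster 3 in both libraries. Cluster 9 was left out because it held under 20 cells in an Ep+ library. The authors drew the clusters from the expression of these same cells, so every comparison between clusters is a description without a test. A gene is called higher or lower below where it differed at least 2-fold in the same direction in both Ep+ libraries, among genes with at least 10 CPM in both libraries in either cluster.

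The 15 leading genes, chosen by the lowest ratio to the next cluster in either library, were members of the licensing, fork and repair lists except Slfn9, a Schlafen family gene, and the transcription factor Zfp367. The licensing factor Cdt1 stood first, with 53.7 and 57.0 CPM in cluster 3 against 10.3 and 11.1 CPM in cluster 4, the next cluster, a lowest ratio of 4.94. The helicase subunits Mcm4, Mcm2, Mcm3, Mcm6, Mcm5 and Mcm7 were all among them, with lowest ratios of 3.90, 3.70, 3.02, 2.82, 2.42 and 2.38. Mcm6 had 175 and 171 CPM against 55.6 and 60.2 CPM in cluster 4. Hells reached 133 and 124 CPM against 36.4 and 39.4 CPM, and Uhrf1, which helps copy DNA methylation, had 113 and 124 CPM against 32.1 and 40.9 CPM. Pcna reached 290.0 and 306 CPM against 114 and 137 CPM. For 14 of the 15 genes the next cluster was cluster 4.

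The exception was Ung, the glycosylase that removes uracil from DNA. Ung had 74.4 and 75.3 CPM in cluster 3 and 3.21 and 4.70 CPM in cluster 4, a log2 difference of 4.10, and its next cluster was cluster 8 with 28.0 and 27.5 CPM. The remaining leading genes were the clamp loader subunit Rfc3, the transcription factor Zfp367 and the fork protection factor Tipin, with lowest ratios of 2.70, 2.34 and 2.14.

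**Figure D1:**
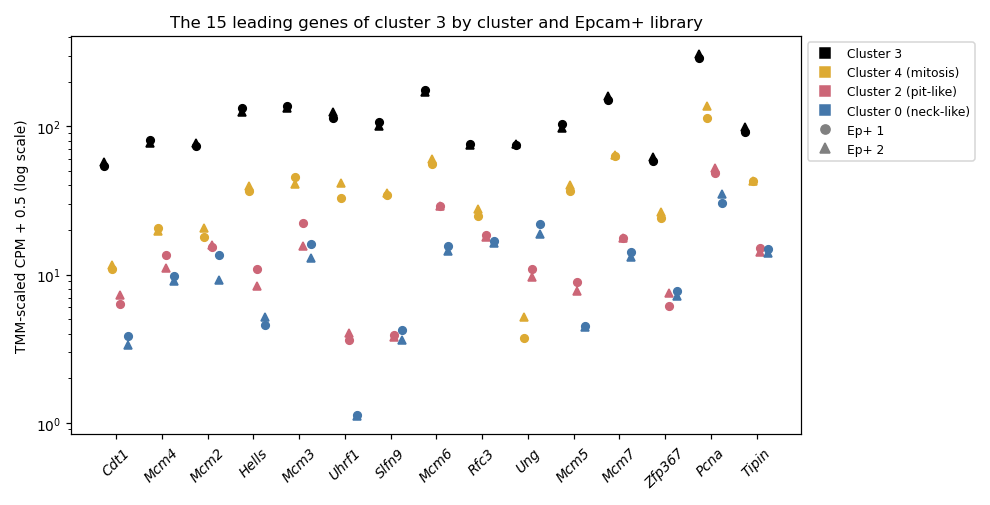
Levels of the 15 leading genes of cluster 3 (x axis) in clusters 0, 2, 3 and 4 of the Ep+ libraries, as TMM-scaled CPM plus 0.5 on a log axis, with 1 point per library. The cluster 3 points lie above those of the other 3 clusters for every gene shown, and Ung is the gene whose cluster 4 points, at 3.21 and 4.70 CPM, lie lowest.

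By role, most licensing and fork genes were highest in cluster 3. Of 20 licensing genes 16 were highest in cluster 3 and 2 in cluster 4, and of 33 fork genes (polymerases, clamp, clamp loader and fork factors) 32 were highest in cluster 3. Against cluster 2, in which 14 of 23 pit genes were highest and which is called pit-like here, 393 of 7314 genes were higher in cluster 3 (5.37%) and 113 were lower (1.54%). All 17 licensing genes measured in that comparison and all 33 fork genes were among the higher ones, with median log2 differences of 2.70 and 2.69, while the median over all genes was -0.09. Against cluster 4, 73 of 7267 genes were higher in cluster 3 (1.00%) and 181 were lower (2.49%). Of 18 licensing genes measured there 9 were higher and 1 was lower, and of 33 fork genes 11 were higher and none was lower. The licensing gene that was lower was Dbf4, the activator of the Cdc7 kinase, with 30.4 and 28.4 CPM against 75.1 and 78.6 CPM. The inhibitor of licensing Gmnn did not pass, with 108 and 113 CPM against 62.8 and 75.1 CPM.

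The genes that supply nucleotides separated less sharply from cluster 4. Of 16 such genes 8 were highest in cluster 3, and 2 were higher than in cluster 4 by the 2-fold rule. Among them was Paics of purine synthesis, with 117 and 118 CPM against 55.5 and 56.5 CPM. The ribonucleotide reductase subunits had nearly the same levels in both clusters, with 97.4 and 92.5 CPM of Rrm1 against 99.3 and 91.6 CPM, and 66.1 and 77.6 CPM of Rrm2 against 77.0 and 82.7 CPM. Tyms was at 125 and 129 CPM against 148 and 142 CPM. In the pit-like cluster these genes were low, as shown by Rrm2 at 4.49 and 3.49 CPM, and 11 of the 16 were higher in cluster 3 with a median log2 difference of 1.65.

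Genes of the G1-S switch followed the early replication genes. The transcription factor E2f1 had 33.1 and 30.5 CPM, beside 7.03 and 5.62 CPM in cluster 4 and 0.976 and 0.930 CPM in cluster 2. The cyclins Ccne1 and Ccne2, partners of Cdk2, had log2 differences of 1.64 and 2.16 from cluster 4. The G1 cyclins did not rank with them, since Ccnd1 had 226 and 206 CPM in cluster 3 but Ccnd2 was higher in the neck-like cluster 0 (mean 382 CPM) than in cluster 3 (290 and 224 CPM). Cluster 0 is called neck-like because Muc6 was highest there, although only 2 of 10 neck genes were highest in it in both Ep+ libraries. Of 8 neck genes measured between these clusters, 5 were lower in cluster 3 than in cluster 0 and 1 was higher. The neck list summed to 44804 and 19595 CPM in cluster 0 and to 30474 and 25247 CPM in cluster 3, so the libraries differed in direction. Of 19 measured G1-S genes 6 were higher than in cluster 4 and 1, the Cdk adaptor Cks1b, was lower (61.0 and 65.2 against 131 and 132 CPM).

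None of the 6 CDK inhibitors in the table was highest in cluster 3. Cdkn1a (p21) had 27.7 and 37.7 CPM, beside 25.5 and 43.4 CPM in cluster 4 and 74.8 and 62.9 CPM in cluster 2. Cdkn2d was lower than in cluster 4, with 7.81 and 9.88 against 50.1 and 56.3 CPM.

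Repair genes that act on replicating DNA moved with the licensing genes. All 13 measured members were higher than in cluster 2, with a median log2 difference of 3.34, and 7 were higher than in cluster 4. The checkpoint kinase Chek1 had 36.2 and 39.9 CPM in cluster 3 against 11.03 and 12.27 CPM in cluster 4, and the mismatch repair gene Msh6 had 40.4 and 38.5 CPM against 13.6 and 9.92 CPM. Chromatin and histone genes did not behave as 1 group. The histone chaperone Nasp was at 155 and 160 CPM against 74.2 and 82.0 CPM in cluster 4, just short of the 2-fold rule, whereas Hmgb2, a chromatin protein, was at 524 and 533 CPM against 1650 and 1704 CPM. The histone variant H2afz was at 948 and 1025 CPM against 1851 and 1912 CPM. Of 18 chromatin genes 5 were lower than in cluster 4 (Cenpa, H2afv, H2afx, Hmgb2 and Hmgn2) and none was higher. Of 20 ribosome biogenesis genes 11 were highest in cluster 3, but none differed by the 2-fold rule from cluster 4 and 1 did from cluster 2, with the nucleolar protein Npm1 at 899 and 903 CPM against 734 and 703 CPM in cluster 4.

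**Figure D2:**
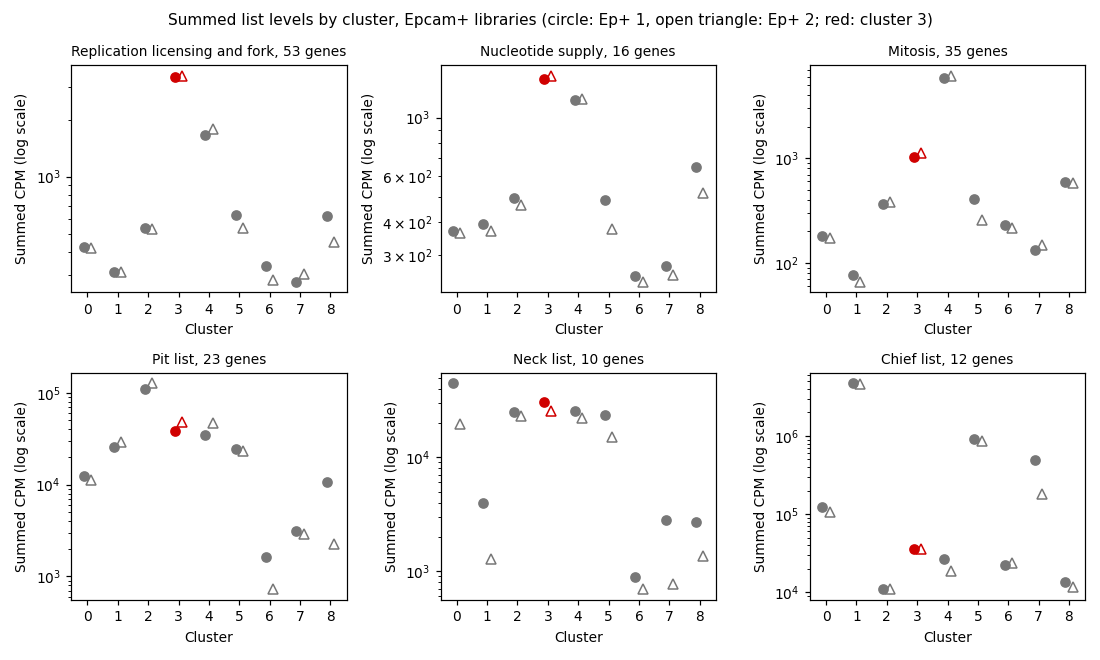
Summed TMM-scaled CPM of 6 gene lists (y axis, log scale) in clusters 0 to 8 (x axis), with 1 point per Ep+ library and cluster 3 in red. The replication lists peak in cluster 3 and the mitosis list in cluster 4. The chief cell list has values above the CPM total in cluster 1 because the TMM factors there are 0.1788 and 0.1847.

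Mitosis genes set cluster 3 apart from cluster 4. All 35 of them were lower in cluster 3, with a median log2 difference of -2.40, and all were highest in cluster 4. The proliferation marker Mki67 had 89.5 and 106 CPM in cluster 3 against 439 and 466 CPM, and Top2a had 110.4 and 109.7 CPM against 391 and 407 CPM. The survivin gene Birc5 had 58.2 and 62.0 CPM against 363 and 369 CPM. They were nonetheless present in cluster 3 above the pit-like cluster, where Top2a had 3.51 and 4.13 CPM. Of 26 mitosis genes measured against cluster 2, 20 were higher in cluster 3 and 1 was lower, with a median log2 difference of 2.22.

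Because deeper cells show a gene more often, each cell was thinned at random to 16880 UMIs before cells were counted, which left out 23 of the 490 cells. The 214 and 227 remaining Ep+ cells of cluster 3 had a median of 69 and 68 UMIs of the 53 licensing and fork genes, against 19.5 and 21 in cluster 4 and 8 and 8 in cluster 2. They had a median of 11 and 11 UMIs of the 35 mitosis genes, against 110 and 120 in cluster 4 and 4 and 4 in cluster 2. The cluster thus held many replication UMIs per cell with few mitosis UMIs. A Pcna UMI was found in 98.6% and 96.0% of its thinned cells, and a Mki67 or Top2a UMI in 69.6% (Wilson 95% interval 63.2 to 75.4) and 66.5% (60.2 to 72.3). The last share was 98.4% and 98.8% in cluster 4, and 31.5% and 27.5% in cluster 2. In the neck-like cluster it was 11.4% and 12.3%, where median depth before thinning was 24843 and 21521 UMIs against 41443 and 37019 in cluster 3. The intervals cover counting error only.

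With at least 5 UMIs of each list counted as present, 77.6% and 82.8% of cluster 3 cells held both lists, 22.4% and 17.2% held replication genes alone and no cell held mitosis genes alone. In cluster 4, 96.7% and 97.0% held both and 3.26% and 2.96% held mitosis genes alone. Replication genes alone were held by 41.83% and 46.05% of cells of the pit-like cluster and by 67.53% and 69.81% of the neck-like cluster. Both lists were held by 36.68% and 34.99% of the pit-like cluster and by 15.06% and 18.16% of the neck-like cluster. Holding replication genes alone at this cut was thus not particular to cluster 3. Across cells of cluster 3, replication and mitosis UMIs had Spearman correlations of 0.68 (214 cells) and 0.74 (227 cells). The cells of 1 library share its preparation, and the clusters were drawn from these genes, so this is a description.

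**Figure D3:**
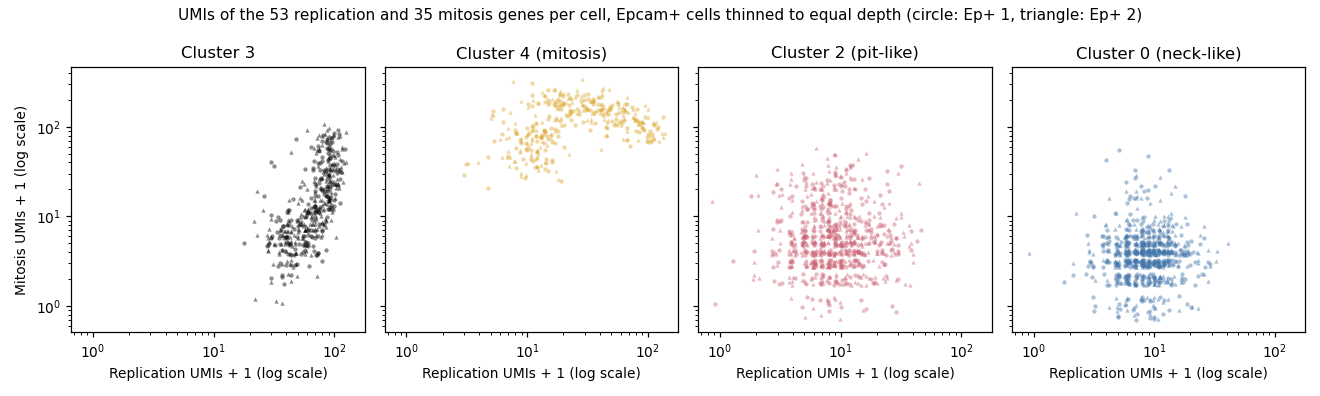
UMIs plus 1 of the 53 licensing and fork genes (x axis) and of the 35 mitosis genes (y axis) in cells of the Ep+ libraries thinned to 16880 UMIs, on log axes, with 1 slightly jittered point per cell and 1 panel each for clusters 3, 4, 2 and 0. Cluster 3 lies at high replication UMIs (medians of 69 and 68) over a wide range of mitosis UMIs (medians of 11 and 11), and cluster 4 lies above it.

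Cluster 3 was also ordered within each library by its mitosis UMIs and cut into 3 equal parts, which held 1 to 6, 6 to 19 and 19 to 92 mitosis UMIs per cell in Ep+ 1. The licensing genes did not share 1 course along this order. Mcm2 was at 93, 93 and 92 CPM of thinned UMIs from the lowest to the highest part of Ep+ 1, and at 90, 104 and 86 CPM in Ep+ 2. Cdt1 was at 56, 64 and 74 CPM and at 48, 65 and 88 CPM. The licensing and fork lists summed to 2857, 4035 and 5075 CPM in Ep+ 1 and to 2717, 4008 and 5385 CPM in Ep+ 2. Some single genes differed far more. Rrm2 went from 7 over 48 to 161 CPM in Ep+ 1 and from 12 over 37 to 190 CPM in Ep+ 2, and the clamp-binding protein gene Pclaf went from 15 to 466 CPM and from 20 to 524 CPM. Ccnd2 ran the other way, from 485 to 249 CPM and from 372 to 177 CPM. Ung was lower in the highest part (62 and 85 CPM) than in the middle one (113 and 97 CPM). The order was set by the mitosis genes themselves, so their own values along it are not a result.

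Pit genes were present in cluster 3 at a level below the pit-like cluster and close to that of cluster 4. Of 23 pit genes none was highest in cluster 3. Of 19 measured against cluster 2, 10 were lower and none was higher, with a median log2 difference of -1.10, and of 18 measured against cluster 4 none passed in either direction (median 0.06). With library totals in place of TMM factors the median over all genes against cluster 2 moved from -0.09 to 0.10, and 7 pit genes were lower with a median of -0.91. Tff1 had 17652 and 18616 CPM, beside 16664 and 19613 CPM in cluster 4 and 48980 and 51686 CPM in cluster 2. Muc5ac had 1233 and 1593 CPM, against 1018 and 1235 CPM in cluster 4 and 2369 and 2788 CPM in cluster 2, so that it stayed short of the 2-fold rule in both comparisons. In the neck-like cluster Tff1 was at 235 and 145 CPM and Muc5ac at 10.6 and 29.4 CPM.

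The gastrokines Gkn1 and Gkn2 were lower in Ep+ 1 than in Ep+ 2 in clusters 2, 3 and 4 alike. Gkn1 stood at 5578 and 9392 CPM, beside 5148 and 9479 CPM in cluster 4 and 23368 and 29935 CPM in cluster 2. The glutathione transferase Gsta1 had 1119 and 1137 CPM against 3312 and 3152 CPM in cluster 2. The surface protein Psca had 651 and 631 CPM against 2174 and 2204 CPM. The keratin Krt19, which is not on the pit list, had 769 and 613 CPM against 2084 and 1537 CPM. The calpain Capn9 was at 2.90 and 5.94 CPM against 35.9 and 37.2 CPM. Slc5a8 and Onecut2 were at 0 in both Ep+ libraries of cluster 3, but Slc5a8 was also at 0 in cluster 2 and Onecut2 was at 0.65 and 1.16 CPM there. Agr2, a disulfide isomerase of mucous cells, was higher in cluster 0 (mean 8344 CPM) than in cluster 3 (3076 and 3044 CPM).

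Neck and chief cell genes were present in cluster 3 as well. Muc6 had 689 and 522 CPM, above the 99.8 and 69.4 CPM of cluster 2 and the 291 and 273 CPM of cluster 4, and below the neck-like cluster with a mean of 3977 CPM. The water channel Aqp5 had 57.1 and 56.2 CPM against 6.11 and 10.8 CPM in cluster 2 and 10.3 and 13.1 CPM in cluster 4. It was the only one of 8 measured neck genes that passed against cluster 4, while 4 passed against cluster 2. Tff2, a trefoil protein of neck cells, was at 28686 and 24012 CPM in cluster 3 and at 24238 and 22689 CPM in cluster 2, which are close to each other.

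Pepsinogen C (Pgc) was at 32119 and 30361 CPM, beside 9487 and 9242 CPM in cluster 2 and a mean of 103860 CPM in cluster 0. Of 7 chief cell genes measured, 6 were higher in cluster 3 than in cluster 2, but 2 were when the 6 cells of cluster 3 called as doublets, and those of the other clusters, were left out. Without doublets the colipase gene Clps fell from 2120 and 2726 CPM to 1443 and 1053 CPM in cluster 3, while Pgc was at 31960 and 30099 CPM. Free RNA also gives UMIs of abundant secreted proteins, and its part in these levels was not tested. The lists for tuft, squamous, immune, stromal and endothelial, and red blood cells each held at most 0.0014% of the UMIs of cluster 3 in either library, with Ptprc, Pecam1, C1qa, Trp63, Krt14 and Col3a1 at 0 in cluster 3 (cells with any Ptprc or Pecam1 count were removed before deposit). The endocrine gene Chga had 41.5 and 5.30 CPM, and Atp4a, the proton pump of parietal cells, had 9.83 and 9.14 CPM. The pan-epithelial gene Epcam had 445 and 447 CPM.

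Lists of signalling and stress genes set cluster 3 apart little from clusters 2 and 4. Of 15 immediate-early genes only Ier3 was lower than in cluster 2 (median log2 difference over the list -0.60), and none passed against cluster 4 (median -0.05). Fos had 2502 and 2176 CPM, beside 3878 and 3243 CPM in cluster 2. Of 18 gastric transcription factors none passed against either cluster. Of 12 heat shock genes 1 was higher than in each, and of 9 genes of the Atf4 axis 2 were higher than in cluster 2 and none than in cluster 4.

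Muc5ac and Muc6 were counted together in the cells of cluster 3. Among thinned cells with at least 2 UMIs counted as present, 88 of 214 cells in Ep+ 1 held Muc5ac alone (41.1%), 82 held Muc6 alone (38.3%), 37 held both (17.3%) and 7 held neither (3.27%). In Ep+ 2 the numbers were 107 (47.1%), 82 (36.1%), 30 (13.2%) and 8 (3.52%) of 227 cells. Cluster 4 had shares of the same order, with 42.9% and 47.9% Muc5ac alone and 35.3% and 30.8% Muc6 alone. The pit-like cluster held 75.4% and 76.7% Muc5ac alone and 12.3% and 13.8% both, near the share with both in cluster 3, and the neck-like cluster 98.2% and 95% Muc6 alone. At least 1 Muc5ac UMI was found in 64.0% and 66.1% of thinned cluster 3 cells, and in 10.9% and 17% of cells of the neck-like cluster. At least 1 Muc6 UMI was found in 66.8% and 58.6% of thinned cluster 3 cells, and in 36.4% and 32.7% of cells of the pit-like cluster. The part of free RNA in these shares was not tested.

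The cells were then ordered within each library by the share of their UMIs that came from Tff1, Gkn1, Gkn2 and Muc5ac and cut into 3 equal parts, with median shares of 0.02%, 0.63% and 6.54% in Ep+ 1 and 0.02%, 0.66% and 8.88% in Ep+ 2. CPM in the parts were taken over the UMIs of all other genes. The other 19 pit genes did not share 1 course along it, and summed to 11111, 10036 and 13490 CPM in Ep+ 1 and to 10626, 10812 and 15066 CPM in Ep+ 2. Some of them differed widely, and Gsta1 went from 41.8 over 848 to 2829 CPM in Ep+ 1 and from 77.5 over 987 to 2969 CPM in Ep+ 2. Psca and Mucl3 took the same direction in both libraries, with Psca at 101, 436 and 1641 CPM in Ep+ 1. So did Krt19, which is not on the pit list.

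Several neck and chief cell genes ran in the opposite direction. Muc6 went from 2576 over 435 to 46.2 CPM and from 1890 over 369 to 14.7 CPM, and Aqp5 went from 182 over 49.6 to 13.8 CPM and from 167 over 56.3 to 13.1 CPM. Pgc went from 91956 over 31041 to 12286 CPM in Ep+ 1. The neck gene Tff2 did not, with 25321, 47353 and 33385 CPM in Ep+ 1 and 17933, 43559 and 28308 CPM in Ep+ 2. The share of the 4 pit genes had Spearman correlations across cells of -0.79 and -0.78 with the neck genes without Tff2 and of -0.74 and -0.70 with the chief cell genes without Pgc (214 and 227 cells), as shares of the same UMI totals. The correlations with the other pit genes were 0.23 and 0.37.

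Replication genes differed less along this order than Gsta1, Psca or Muc6 did. Mcm6 was at 213, 216 and 226 CPM in Ep+ 1 and at 198, 232 and 222 CPM in Ep+ 2. Pcna was at 329, 354 and 395 CPM and at 311, 390 and 457 CPM. The licensing and fork lists summed to 3824, 4162 and 4561 CPM and to 3596, 4478 and 4910 CPM, log2 differences of 0.25 and 0.45 between the outer parts, beside 0.28 and 0.50 for the sum of the other 19 pit genes. The mitosis list differed more, from 703 over 1213 to 1780 CPM and from 637 over 1222 to 2228 CPM, log2 differences of 1.34 and 1.80 between the outer parts. Mki67 was at 50.7, 110 and 157 CPM in Ep+ 1 and at 58.5, 119 and 210 CPM in Ep+ 2. These parts are not replicates, and no test was run.

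**Figure D4:**
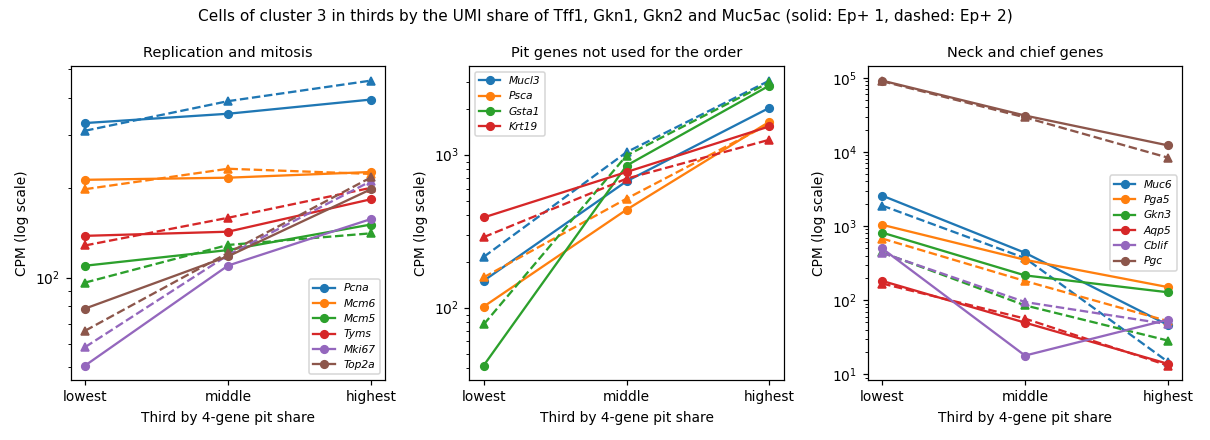
Levels of pit, neck, chief cell, replication and mitosis genes in cluster 3 cells of each Ep+ library, split into 3 equal parts by the share of UMIs from Tff1, Gkn1, Gkn2 and Muc5ac, as CPM of the other UMIs on a log axis, with solid lines for Ep+ 1 and dashed lines for Ep+ 2. Gsta1 goes from 41.8 to 2829 CPM in Ep+ 1 and Muc6 from 2576 to 46.2 CPM, while Mcm6 stays between 198 and 232 CPM in both libraries. Krt19, shown with the pit genes, is not on the pit list.

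Over 6915 genes, the log2 levels of cluster 3 correlated with those of cluster 4 at r = 0.966 in both Ep+ libraries, with cluster 2 at 0.909 and 0.911, with cluster 5 at 0.886 and 0.858 and with cluster 0 at 0.850 and 0.847. The remaining clusters were less alike, from 0.845 and 0.769 for cluster 8 to 0.671 and 0.626 for cluster 6. The 2 Ep+ libraries of cluster 3 correlated at 0.994. These are correlations across genes, which are not independent replicates. Of 248 genes that were at least 4-fold higher in cluster 4 than in cluster 2, 184 (74.2%) had a level in cluster 3 that lay between both in each library.

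Counts against the other clusters were larger. Against cluster 0, 615 of 7450 genes were higher in cluster 3 (8.26%) and 248 were lower (3.33%), and the higher ones held all 17 measured licensing genes and 8 of 18 pit genes. Against clusters 1, 5, 6, 7 and 8, 17.2%, 9.45%, 23.3%, 20.7% and 12.9% of the genes were higher and 13.2%, 4.88%, 15.5%, 11.5% and 7.04% were lower. On the TMM scale the median log2 difference over all genes was 0.25 to 0.34 against clusters 5, 6 and 7, and with library totals the median against cluster 1 was 2.75, so the counts depend on the scale. With library totals the share of higher genes was 95.8% against cluster 1 and 51.8% against cluster 5, where 1.40% were lower, and against cluster 6 it was 15.3% with 23.9% lower.

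The design also compared the sorts, and here the members of cluster 3 were few. Cluster 3 made up 14.2% (Wilson 95% interval 12.6 to 15.96) of the cells of Ep+ 1 and 12.1% (10.7 to 13.7) of Ep+ 2, against 3.64% (2.29 to 5.75) of GFP+ 1 and 2.25% (1.23 to 4.1) of GFP+ 2. Both GFP+ shares lay below both Ep+ shares. With edgeR's quasi-likelihood test on cells per cluster and Benjamini-Hochberg adjustment over the 10 clusters, the log2 difference was -2.15 (SE 0.48, adjusted p = 0.000808). The exact two-sided permutation test gave p = 0.333, the smallest that 2 against 2 libraries allow. Without Ep+ 1 or without Ep+ 2 the adjusted p of edgeR's test was 0.277 and 0.171. The share is relative to all other clusters, and among clusters 0, 2, 3 and 4 alone the log2 difference was -0.99 (edgeR, adjusted p = 0.0122). The paper reports GFP in only a part of the stomach Epcam+ cells at the start of the chase. How evenly the clusters were labelled at that time was not tested here.

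Expression within cluster 3 was compared between the sorts with edgeR's quasi-likelihood test on the 4 sums, whose CPM are scaled over these 4 sums only. Of 10736 genes 33 passed at an adjusted p of 0.05 (0.307%), 30 of them higher (0.279%) and 3 lower (0.0279%) in GFP+ cells, and 1293 had an unadjusted p under 0.05. The number of calls, more than the fold changes, fell when 1 cell was left out. In GFP+ 2, 1 of the 10 cells held 15.4% of the UMIs of the cluster, with a pit gene share of 6.40% against a median of 0.28%. It held the most UMIs for 17 of the 30 higher genes, which is how it was chosen, and over 50% of the UMIs for 9 of them. The choice used the called genes themselves, so a loss of calls without that cell is not an independent check. Without that cell 3 genes passed (Akr1b8, Itpkc and Slc5a5), and all 3 were among the 33. All 33 kept their direction without it, the median log2 difference of the 30 higher genes was 1.17 in place of 1.38, and the adjusted p of the lost calls (edgeR) ran from 0.0712 to 0.437. Neurl3 moved most, from 1.65 to 0.76, and Arc moved from 1.84 to 1.26. With all of GFP+ 2 left out, the log2 differences of Neurl3 and Arc were 1.04 and 1.74. Without the cell of GFP+ 1 chosen by the same rule, 32 genes passed, 28 of them among the 33. The libraries also differed in the median share of the 4 pit genes per cell. It was 4.27% in GFP+ 1 and 0.28% in GFP+ 2, beside 0.63% and 0.65% in Ep+ 1 and Ep+ 2. Whether this difference in the mix of cells bears on the calls was not tested.

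Of the genes named by the rule, 10 were higher and 3 were lower. The neck gene Gkn3 had 326 and 156 CPM in Ep+ 1 and Ep+ 2 and 858 and 988 CPM in GFP+ 1 and GFP+ 2 (log2 1.93, SE 0.28, adjusted p = 0.0208, edgeR), and 78.1% of its UMIs in GFP+ 2 came from another single cell, so that without the cell described above its log2 difference was 2.02. The immediate-early gene Arc had 30.4 and 26.9 CPM against 94.97 and 117 CPM (log2 1.84), and 95% of its UMIs in GFP+ 2 came from that cell. The iodide transporter Slc5a5 had 25.3 and 29.3 CPM against 101 and 66.4 CPM (log2 1.71, SE 0.19, adjusted p = 0.00597, edgeR), and 70.6% of its UMIs in GFP+ 2 came from a single cell that was not that one. Lgals4, a galectin of epithelia, had 48.7 and 58.6 CPM against 165 and 156 CPM, and Sfn, the 14-3-3 sigma gene, had 109 and 111 CPM against 318 and 219 CPM. In GFP+ 2, 67.5% of the Lgals4 UMIs and 71.4% of the Sfn UMIs came from that cell. For 15 of the 30 higher genes 1 cell or another of GFP+ 2 held over 50% of the UMIs. The others were Neurl3, Gadd45g, Oasl1, Ifrd1 and Palld, with log2 differences from 1.31 to 1.65. The GFP+ libraries lay above the Ep+ libraries for each of the 10, which the rule for naming them required and which is not a result.

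The lower genes were the receptor chaperone Lrpap1 (288 and 293 against 148 and 176 CPM), the incretin receptor Glp1r (104 and 86.7 against 38.9 and 35.1 CPM) and 2210404E10Rik (127 and 91.3 against 20.7 and 42.9 CPM), and none of them passed without that cell, with log2 differences of -0.77, -1.25 and -1.86 in place of -0.86, -1.34 and -1.96. In the pit-like cluster of the same Ep+ libraries, Slc5a5 was at 101 and 84.5 CPM, Lgals4 at 127 and 132 CPM and Glp1r at 39.6 and 28.2 CPM, on the scale over clusters. The comparison between sorts and the one between clusters share the Ep+ sums of cluster 3.

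The replication genes did not pass between the sorts. Pcna had 345 and 371 CPM in Ep+ and 306 and 390 CPM in GFP+ libraries (log2 -0.06, SE 0.15, edgeR), and the groups overlapped. Mcm6 had 208 and 207 CPM against 221 and 242 CPM, and Mcm5 had 124 and 117 CPM against 138 and 150 CPM (log2 0.15 and 0.25), and for both the GFP+ libraries lay above the Ep+ libraries. Of 20 licensing, 33 fork, 16 nucleotide and 35 mitosis genes measured, none passed, where only 0.307% of all genes did. Their median log2 differences were -0.01, -0.03, -0.25 and -0.57 against -0.00 over all genes. Among the 35 mitosis genes 13 had an unadjusted p under 0.05 (edgeR), beside 12.0% of all genes. After thinning, the 17 and 9 GFP+ cells had a median of 67 and 71 replication UMIs, and a Mki67 or Top2a UMI was found in 64.7% (Wilson 95% interval 41.3 to 82.7) and 66.7% (35.4 to 87.9) of them. With 17 and 10 cells, a failure to pass does not show that the sorts have equal levels.

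Of the 20 genes on the pit list 1 passed, Tff1, beside 0.307% of all genes. Krt19, which is not on that list, also passed (log2 0.92), but not without the 1 cell of GFP+ 2 (log2 0.81). Tff1 had 20971 and 22561 CPM in Ep+ and 41065 and 37087 CPM in GFP+ libraries (log2 0.84, SE 0.11, adjusted p = 0.0101, edgeR). Without the 1 cell of GFP+ 2 its log2 difference was still 0.84, with an adjusted p of 0.0712 (edgeR). Muc5ac had 1465 and 1930 CPM against 1782 and 2506 CPM (log2 0.33), and the groups overlapped. Among 12 genes of the Atf4 axis only Atf4 itself passed (195 and 194 against 367 and 353 CPM, log2 0.89). Of the 15 genes on the immediate-early list 1 passed, Klf6 (log2 1.06), and Arc is not on that list. At an unadjusted p under 0.05 these lists held 10 of 20 pit genes (median log2 difference 0.39), 7 of 12 genes of the Atf4 axis (0.57) and 12 of 15 immediate-early genes (0.60), beside 12.0% of all genes.

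The sort effect in cluster 3 was also set against that in the pit-like cluster. Of 11445 genes 15 differed (0.131%), 9 with a higher effect in cluster 3 (0.0786%) and 6 with a lower one (0.0524%), by the interaction term of edgeR's quasi-likelihood test. Muc6 differed by 2.66 on the log2 scale (SE 0.45, adjusted p = 0.0242, edgeR), being lower in GFP+ than in Ep+ cells of cluster 2 and overlapping between the sorts in cluster 3. In GFP+ 2 it had 4 UMIs in cluster 2, and 1 of 10 cells held 53.3% of its UMIs in cluster 3. Cdkn1a differed by -1.67 (SE 0.30, adjusted p = 0.0427, edgeR), with GFP+ libraries above Ep+ libraries in cluster 2 and overlapping values in cluster 3. It had 11 UMIs in cluster 3 of GFP+ 2. Without Ep+ 2 the count was 2, and without GFP+ 1 it was 375.

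**Figure D5:**
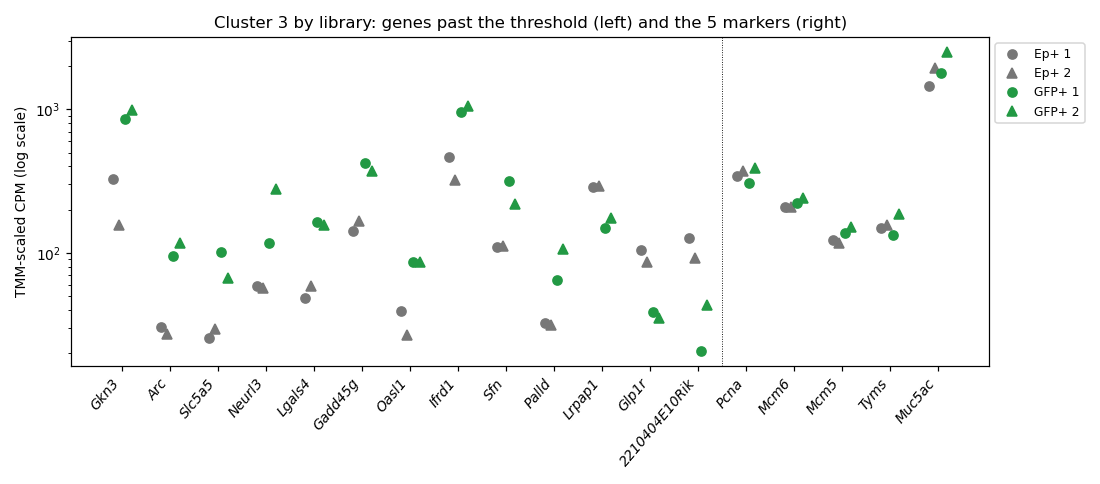
Levels of marker and named genes in cluster 3 of each of the 4 libraries, in CPM scaled over the 4 sums on a log axis. Gray points are Ep+ and green points GFP+ libraries. The GFP+ points of Gkn3, Arc and Slc5a5 lie above the Ep+ points, as the rule for naming these genes required. Those of Pcna and Tyms lie among the Ep+ points.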

How the data were processed

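Single-cell RNA of 2 Ep+ and 2 GFP+ libraries was analysed. The authors aligned 10x 3′ reads to mm10 and obtained UMI counts in Cell Ranger 3.0.2. They left out cells over 15% mitochondrial UMIs, over 8000 or under 1500 genes, or with Ptprc or Pecam1, and deposited raw counts of 17712 genes in 4449 cells with a cluster number per cell. How finely they clustered is not given in the sources used.

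Counts were summed per library and cluster. Clusters were compared on TMM-scaled CPM with 0.5 CPM added before log2, without a test. Sorts were compared with edgeR 4.0.16 (R 4.3.3), quasi-likelihood, two-sided, filterByExpr, Benjamini-Hochberg adjustment at 0.05. On simulated counts it recovered 46.5% of 86 changes of 2-fold and 88.6% of 114 changes of 4-fold, with 6 false calls. The simulation had 1 fixed dispersion and no spread between cells, so it does not cover sums in which single cells weigh heavily. For the interaction with cluster 2, libraries were blocks. Doublets were called with Scrublet in scanpy 1.11.5 (74 cells, 1.66%) and kept. Library totals were 73876885, 79455225, 35571141 and 47222033 UMIs. In cluster 3 median UMIs per cell were 41443, 37019, 70247 and 42233 and median mitochondrial shares 6.08%, 6.84%, 5.76% and 6.26%. No cell of it shared a barcode between libraries.

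Named genes were the markers, the 5 highest members of each of 26 lists and those at 0, the 15 leading genes, up to 10 rising and 10 falling called genes with a mean of at least 50 CPM and no overlap, and the 10 interaction genes of smallest p at that level. Other genes named were chosen after their values were seen. The members and lists were chosen with earlier results of these data known. Of 402 list genes 385 were in the table, and the others were not analysed here. The values of 1 list gene are not reported here.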

Additional observations from a re-analysis of the deposited data

Results flagged for a closer look

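The sort effect (GFP+ against Ep+) in cluster 3 was compared with that in the pit-like cluster 2, and 15 of 11445 genes (0.131%) had a different effect (edgeR's quasi-likelihood test of the interaction, Benjamini-Hochberg adjusted p under 0.05), 9 with a higher effect in cluster 3 and 6 with a lower one. The number with an unadjusted p under 0.05 was 729. Values are differences of log2 sort effects, cluster 3 minus cluster 2, and the CPM are given in the order Ep+ 1, Ep+ 2, GFP+ 1, GFP+ 2.

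Muc6 differed by 2.66. It was at 108, 76.6, 23.2 and 2.66 CPM in cluster 2 and at 769, 594, 535 and 1065 CPM in cluster 3. In GFP+ 2 it had 4 UMIs in cluster 2, and 1 of 10 cells held 53.3% of its UMIs in cluster 3. The cell cycle inhibitor Cdkn1a differed by -1.67, with 81.1, 69.4, 231 and 108 CPM in cluster 2 and 30.9, 42.9, 34.0 and 19.5 CPM in cluster 3. Its value in cluster 3 of GFP+ 2 came from 11 UMIs. The immediate-early genes Klf6 and Zfp36 differed by 0.78 and 0.76 and the kinase Pim3 by 0.96. The reductase Akr1b8 differed by 1.21, with 46.5, 37.9, 137 and 72.5 CPM in cluster 2 and 10.3, 9.47, 72.0 and 42.6 CPM in cluster 3. Gm20186 differed by 1.76 and Cpn1 by 1.36. Spink4 differed by -1.06.

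The chief and secretory genes Chia1 and Furin differed by -3.54 and -2.72, and their highest values were in cluster 2 of GFP+ 1, at 605 and 80.5 CPM, where 89.5% and 76.4% of their UMIs came from 1 of 42 cells. Cd74 differed by -5.12, with its highest value, 82.4 CPM, in cluster 2 of GFP+ 2, where 3 of 27 cells held its UMIs. The remaining differences had very few UMIs behind them. Acta1 differed by 8.97, and its 30 UMIs in cluster 3 of GFP+ 2 came from 1 cell. 4930539E08Rik differed by 11.14, with 62.5% of its 32 UMIs in cluster 3 of GFP+ 1 in 1 cell, and Serpinh1 differed by -9.82, with 0 UMIs in cluster 3 of both GFP+ libraries. Fitted values of genes at 0 depend on the prior count and are no bound.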

How the results depend on the processing

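The count of 33 genes between the sorts in cluster 3 depended on the processing. It was 54 with DESeq2 size factors, 88 with no filter on low counts, 58 with doublets left out, 68 with DESeq2's Wald test and 36 to 336 when 1 library was left out. In alternatives chosen after seeing the data it was 3 without 1 cell of GFP+ 2, 32 without 1 cell of GFP+ 1 and 6 without 1 cell of each GFP+ library. With a replicate block it was 268, but the labels do not say that the replicate numbers pair libraries. Over 2636 genes the deviations of Ep+ 1 and GFP+ 1 from the means of their sorts correlated at 0.34, and the source of this was not tested. The interaction count of 15 became 96 with no filter and 2 to 375 without 1 library. The log2 share of cells ranged from -2.54 to -1.85 without 1 library and lost its call without either Ep+ library. The 511 genes highest in cluster 3 became 158 at 50 CPM, and 700 to 778 with 1 Ep+ library. At 50 CPM, replication genes higher than in cluster 4 fell from 20 to 13, those higher than in cluster 2 from 50 to 24, and mitosis genes higher than in cluster 2 from 20 to 5, since fewer genes were measured. Chief cell genes higher than in cluster 2 fell from 6 to 2 without doublets. The difference between sorts in cells with a Mki67 or Top2a UMI was -2.39 percentage points and 13.6 with no thinning, and -3.94 to -0.83 without 1 library (exact permutation p = 0.667 and 0.333). The uncalled log2 difference of Pcna (-0.06) was 0.0203 without 1 cell of GFP+ 2, 0.0046 without 1 cell of each and -0.21 to 0.10 without 1 library, and that of Tyms (0.01) was -0.0181 with no filter and -0.20 to 0.26 without 1 library. The cause was not tested. GFP+ sums of 17 and 10 cells limit every comparison of sorts.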
